A study of Arabidopsis thaliana with 2 samples.

Results

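The genes described here are those encoded on the chloroplast genome of Arabidopsis thaliana, measured in seedlings with components of a synthetic device for sensing oxygen. Members were the probe sets that name 1 gene on the chloroplast genome and whose symbol belongs to a photosynthetic complex (psa, psb, pet, atp, ndh), the RNA polymerase (rpo), the ribosome (rps, rpl), the ycf reading frames, or is rbcL, accD, clpP, matK, cemA or ccsA. The rule found 69 genes, each with 1 probe set, among 13286 genes with a probe set of their own in the annotation used here. The choice used names and not values, but it was made with earlier results of these data known. Another 8 probe sets each name both copies of a gene of the inverted repeat, 7 genes in all, and were not analysed here.

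The study hybridised RNA of untreated 7-day-old Col-0 seedlings, grown on medium with sucrose, to 2 Affymetrix arrays, 1 for each genotype. The double expressor carries the fusions AD-HIFCOOD and GBD-pVHL, and the triple expressor carries AD-HIFCOOD, GBD-pVHL and PHD3, so that both fusions are shared and PHD3 sets the genotypes apart. HIF, pVHL and PHD3 are parts of the animal oxygen response, in which the hydroxylase PHD3 modifies HIF when oxygen is present and pVHL binds the modified protein. The promoters that drive the transgenes, the number of seedlings pooled per array and the number of transgenic lines are unknown from the sources used here, and no array of plants without transgenes was analysed here. Each genotype has 1 array, so replicate error could not be measured, no difference between the genotypes was tested, and what follows describes this pair of arrays.

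Chloroplasts keep a small genome of their own, most of whose proteins act in the photosynthetic membrane or in expressing that genome, while the remaining subunits of the same complexes are nuclear genes. Plastid genes are transcribed, mostly as clusters on long shared transcripts, by a bacterial-type polymerase whose core subunits are the rpo genes and by phage-type polymerases from the nucleus. The transcripts are then cut, spliced, edited and stabilised by nuclear proteins, and polyadenylation marks plastid RNA for decay rather than protecting it. The labels name the standard Affymetrix labelling without its primer, so how fully plastid transcripts were copied is not known.

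Values are log2 RMA values as the authors deposited them, and differences are given on the same log2 scale, negative where the triple expressor had the lower value. A gene was counted as past the threshold where its values were at least 0.322 apart, that is, where the brighter array was at least 25% above the dimmer on the linear scale. Members ranged from 3.55 to 13.74 in the double and from 3.62 to 13.75 in the triple expressor, on arrays whose gene probe sets had medians of 6.51 and 6.54. In 65 of the 69 the brighter array reached 5.71, the 40th percentile of all values. The exceptions were rpoB, rps14, petD and ndhF, whose values lay between 3.55, for ndhF, and 5.44, for petD, both in the double expressor. As background, array signals of different probe sets do not rank genes by abundance, so levels are compared below between the arrays only.

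**Figure D1:**
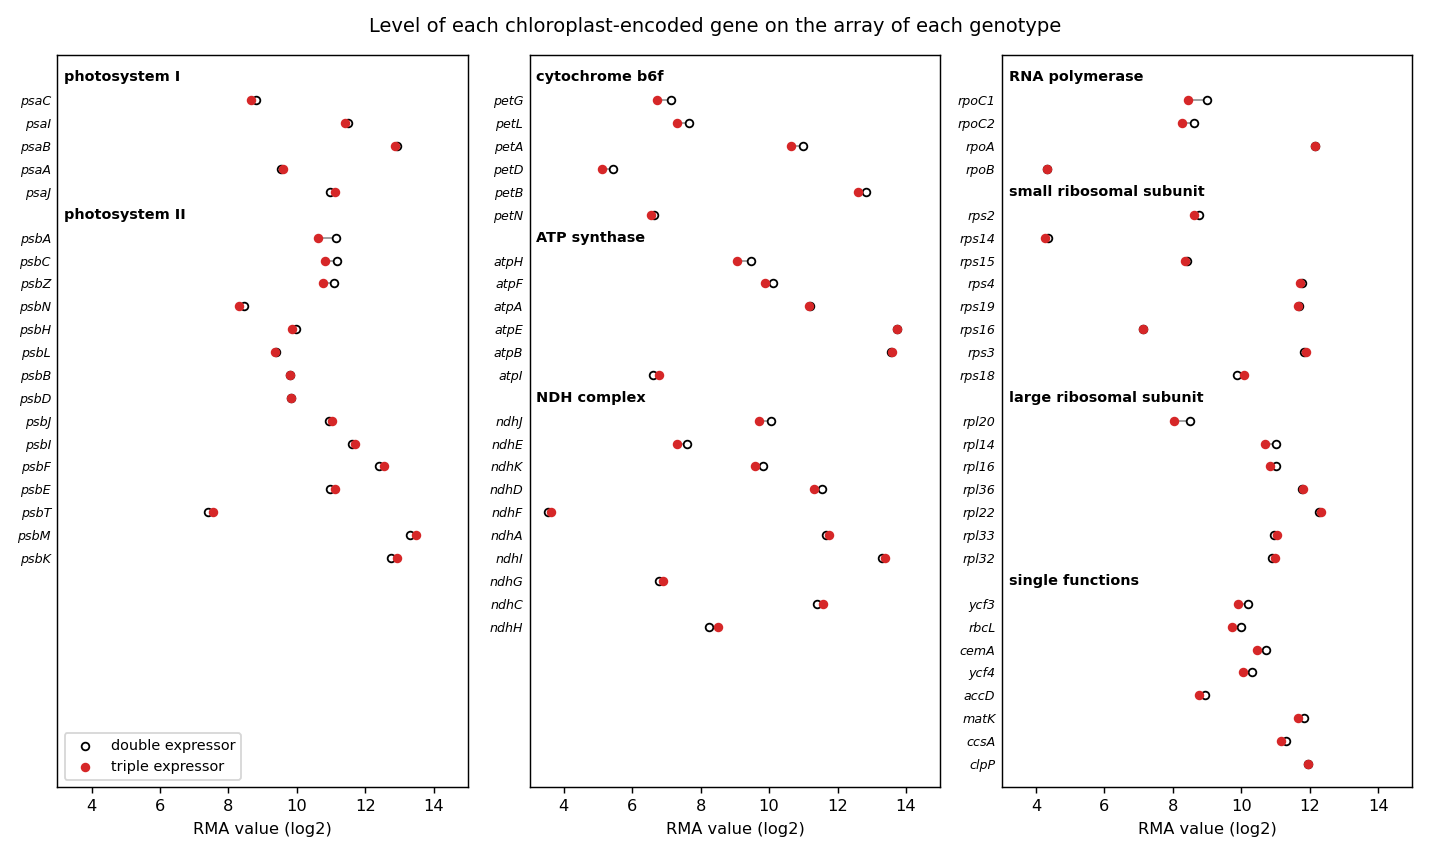
Log2 RMA value (x axis) of each of the 69 chloroplast-encoded genes (y axis, grouped by complex and sorted by difference) on the array of the double expressor (open circles) and of the triple expressor (red circles), 1 array each. The pairs lie close together, and the red circle lies to the left for all 6 cytochrome b6f genes and all 8 genes of single functions.

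Small differences toward a lower level in the triple expressor were found in some complexes more than in others, though most of the spread lay within complexes. The pooled SD of differences within complexes, with genes of single functions as 1 group, was 0.185, against 0.197 over all 69 genes. Lower by at least 0.322 were 10 of 69 members, or 14.5%, where 6.3% of all 22746 gene probe sets were that much lower. Higher by as much were 0 of 69, where 7.39% of all gene probe sets were. Among gene probe sets that reach 5.71 on the brighter array the shares were 4.79% lower and 8.23% higher. The 10 genes were rpoC1, psbA, rpl20, petG, atpH, psbC, petL, petA, rpoC2 and ndhJ. Of these ndhJ lay closest to the threshold from inside, at -0.333, and psbZ, at -0.319, closest from outside. The largest of these differences was 1.47-fold, and no member reached 1.5-fold.

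The median difference of the 69 genes was -0.047 and their mean -0.094, where the median of all gene probe sets was 0.0. The cytochrome b6f genes and the genes of single functions, 14 in all, were all lower, with a median of -0.27, a mean of -0.24 and 3 of the 10 genes past the threshold. The other 55 had 28 lower, 26 higher and 1 equal, with a median of -0.006, a mean of -0.056 and 7 genes past the threshold, all lower. Both groups were set apart after their values were seen. In bulk seedlings, fewer chloroplast-bearing cells and less plastid RNA per cell cannot be told apart.

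**Figure D2:**
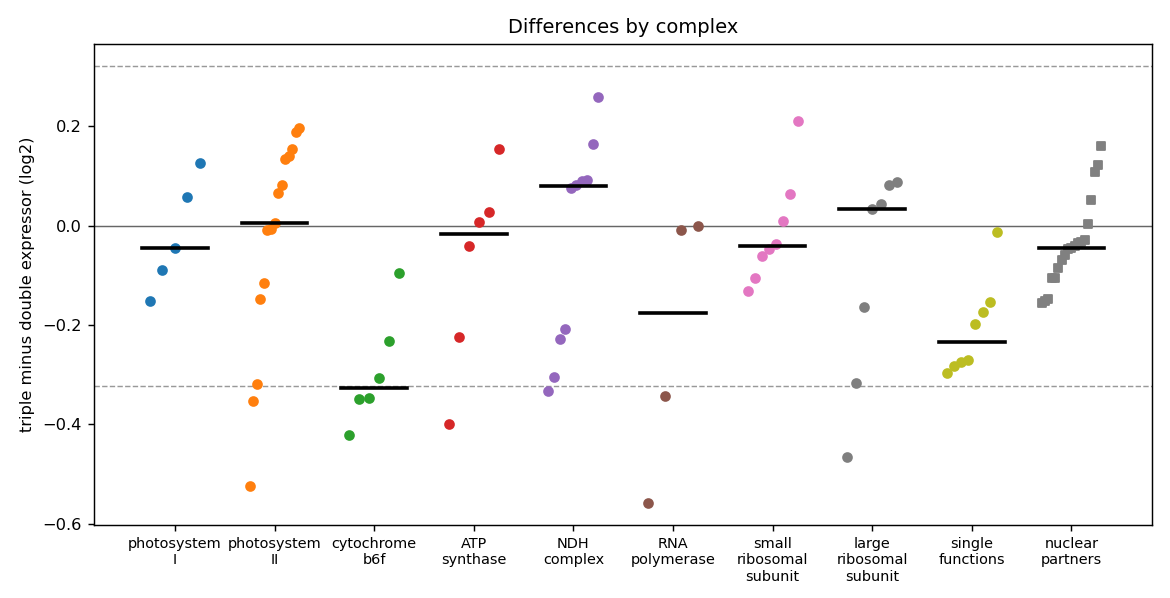
Difference between the triple and the double expressor (y axis, log2) of each chloroplast-encoded gene by complex (circles) and of 19 nuclear genes of the same complexes and of plastid gene expression (squares). Black bars are medians and dashed lines mark the threshold of 0.322. The cytochrome b6f genes lie between -0.42 and -0.09, while photosystem II spans -0.52 to 0.20.

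The cytochrome b6f complex carries electrons from photosystem II to photosystem I and pumps protons. All 6 plastid genes of it were lower in the triple expressor, with a median of -0.33. The gene petA, for cytochrome f, was at 10.99 in the double expressor and 10.64 in the triple. Cytochrome b6 itself is encoded by petB, which was at 12.84 in the double expressor and 12.61 in the triple. The partner of cytochrome b6, subunit IV, is encoded by petD, which went from 5.44 to 5.13, below the 40th percentile on both arrays.

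The remaining b6f genes encode small membrane subunits. The value of petG was 7.13 in the double expressor and 6.71 in the triple, 1.34-fold lower, and it was the lowest of the complex. Beside it on the genome, petL had values of 7.66 and 7.31, 1.27-fold lower. The smallest difference was that of petN, at 6.65 and 6.56. These genes lie at 4 separate places on the chloroplast genome, petA behind cemA, petL beside petG, petB beside petD, and petN alone. Of the gene probe sets within 0.5 of petA in mean level, 1.29% of 619 were as low or lower in difference, and for petB this share was 2.86% of 140. Shares of this kind, here and below, count the gene itself and any other members at that level. For petL and petG, which lie at dimmer levels, the shares were 3.27% of 3851 and 2.21% of 3668. For petD and petN they were 11.8% and 29.1%, so that these 2 genes differed by amounts common at their level. With 32 added to the unlogged values, which damps dim probe sets, the median of the complex was -0.26. All 6 genes stayed lower, as this step cannot change the sign of a difference.

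The genes with functions of their own were also all lower, 8 of 8, but 0 of them reached the threshold of 0.322. The large subunit of the carbon-fixing enzyme Rubisco is encoded by rbcL, which was at 10.00 in the double expressor and 9.72 in the triple. The assembly factors of photosystem I, ycf3 and ycf4, had values of 10.19 and 9.90, and of 10.31 and 10.04. The envelope protein gene cemA was at 10.73 and 10.46. The gene accD, for a subunit of the acetyl-CoA carboxylase that starts fatty acid synthesis, was at 8.95 and 8.75. The intron maturase gene matK was at 11.82 and 11.65. The gene ccsA, which acts in attaching haem to c-type cytochromes, was at 11.31 and 11.16. The protease subunit gene clpP, at 11.95 and 11.94, was nearly the same on both arrays. Apart from clpP the differences of this group lay between -0.30 and -0.15. Of gene probe sets of similar level, 3.55% to 5.35% were as low or lower for cemA, ycf3, rbcL and ycf4. For matK, ccsA and accD the shares were 8.10%, 12.0% and 12.1%, and for clpP 38.8%.

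Photosystem II, which splits water, was mixed, with 7 of its 15 genes lower and 8 higher and a median of 0.005. Its largest difference was that of psbA, which encodes the D1 protein of the reaction centre, a protein replaced continually in the light. The value of psbA was 11.13 in the double expressor and 10.61 in the triple, 1.44-fold lower. Among 574 gene probe sets within 0.5 of its mean level, 0.697% were as low or lower in difference. The gene psbD, for the D2 protein that pairs with D1, was at 9.83 on both arrays. Of the inner antenna proteins, that encoded by psbC went from 11.16 to 10.81, 1.28-fold lower, and that encoded by psbB was at 9.80 and 9.79. The large subunits therefore split into psbA and psbC on the lower side, and psbB and psbD with nearly equal values.

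Small subunits and an assembly factor make up the rest of photosystem II, and 7 of these 11 genes were higher. The cytochrome b-559 genes psbE and psbF differed by 0.14 and 0.13. The small subunit genes psbK, psbM and psbT were higher by 0.20, 0.19 and 0.15, and psbI and psbJ by 0.08 and 0.07. The highest of these, psbK, was at 12.74 in the double expressor and 12.94 in the triple. On the lower side, psbZ went from 11.08 to 10.76, the assembly factor gene psbN differed by -0.15, psbH by -0.12 and psbL by -0.01. The differences of psbM and psbK lay high among gene probe sets of similar level, with 3.57% of 56 and 6.62% of 136 as high or higher, few probe sets being that bright.

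Photosystem I, which reduces ferredoxin, had differences between -0.15 and 0.13 over 5 genes, with 3 lower, 2 higher and a median of -0.044. Its reaction centre genes psaA and psaB had values of 9.54 and 9.60, and of 12.91 and 12.87. The iron-sulphur subunit gene psaC was the lowest, at 8.81 in the double expressor and 8.66 in the triple. The small subunit gene psaJ was the highest, at 10.98 and 11.11, and psaI differed by -0.09. None of the 5 reached the threshold of 0.322.

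The chloroplast ATP synthase makes ATP from the proton gradient. Of its 6 plastid genes, 3 were lower and 3 higher, with a median of -0.016. The gene atpH, for the membrane ring, was at 9.46 in the double expressor and 9.06 in the triple, 1.32-fold lower. The stalk subunit gene atpF went from 10.10 to 9.88. The catalytic head genes atpA and atpB differed by -0.04 and 0.03, and atpE by 0.01. The membrane subunit gene atpI was the highest, at 6.62 and 6.77. The lower members were thus atpH, atpF and atpA, with atpA and the other head genes within 0.05 of equal.

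The NDH complex carries electrons around photosystem I and is related to respiratory complex I. Of 10 genes, 4 were lower and 6 higher, with a median of 0.079. The gene ndhJ was at 10.04 in the double expressor and 9.71 in the triple, 1.26-fold lower. Also lower were ndhE at -0.30, ndhK at -0.23 and ndhD at -0.21. The highest member of all 69 was ndhH, at 8.23 and 8.49, which is 1.20-fold higher. The gene ndhC differed by 0.16, and ndhG, ndhI, ndhA and ndhF by 0.09, 0.09, 0.08 and 0.08. With members kept only where the brighter array reached 7.17, the 60th percentile, ndhF and ndhG left the list and the NDH median was -0.064.

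The plastid-encoded RNA polymerase has 4 subunits encoded in the chloroplast, and 2 of them were past the threshold on the lower side. The gene rpoC1 was at 8.99 in the double expressor and 8.43 in the triple, 1.47-fold lower and the largest difference among the 69 genes. Among 2665 gene probe sets within 0.5 of its mean level, 0.338% were as low or lower. The shares given for rpoC1, psbA and rpl20 belong to the lowest of the 69 genes, and such a choice tends to make them small. The gene rpoC2 went from 8.61 to 8.27, 1.27-fold lower. The values of rpoB, which is transcribed ahead of both, were equal, at 4.32, below the 40th percentile. The fourth subunit gene, rpoA, is transcribed with ribosomal genes and was at 12.16 and 12.15. The median was -0.18, and -0.34 without rpoB.

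The ribosome genes were near balance, with 8 of 15 lower and a median of -0.036. In the small subunit all 8 genes lay between -0.13 and 0.21, rps2 being the lowest, at 8.76 and 8.63, and rps18 the highest, at 9.87 and 10.08. The other 6 lay between -0.11 for rps14 and 0.06 for rps3. In the large subunit rpl20 stood lowest, at 8.49 in the double expressor and 8.02 in the triple, 1.38-fold lower. For rpl20, 0.785% of 3185 gene probe sets of similar level were as low or lower. The gene rpl14, just short of the threshold at -0.316, went from 11.02 to 10.70 and rpl16 from 11.01 to 10.84. The remaining large subunit genes rpl36, rpl22, rpl33 and rpl32 differed by 0.03 to 0.09, with rpl32 at 10.89 and 10.98. The groups of genes can be put in order by their medians, from cytochrome b6f at -0.33, single functions at -0.23 and RNA polymerase at -0.18 to the large ribosomal subunit at 0.034 and the NDH complex at 0.079. The ranges of neighbouring groups in this order overlap.

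Genes on a shared transcript did not always have like differences. The clusters used, 16 in all and known from land plants, were set by name, with earlier results of these data known. Of these, 15 had at least 2 measured genes, holding 55 members. The pooled SD of differences within clusters was 0.17, against 0.20 over the same 55 genes without regard to cluster. Neighbouring members on the genome differed by a median of 0.16, and any pair of members by 0.20. In 3 clusters all measured genes were lower, in 3 all were higher, and in 9 they lay on both sides of or at 0.

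The longest run of neighbours on 1 side of 0 was that of rbcL, accD, psaI, ycf4, cemA and petA, 6 genes in a row that were all lower, by -0.35 to -0.09. Within it, the co-transcribed genes psaI, ycf4, cemA and petA differed by -0.09, -0.27, -0.27 and -0.35. Next to this run the cluster psbE, psbF, psbL and psbJ differed by 0.14, 0.13, -0.01 and 0.07. Then petL and petG were at -0.35 and -0.42, and psaJ, rpl33 and rps18 were higher by 0.13, 0.08 and 0.21. In this stretch of the genome the direction of most genes in a cluster therefore turned from cluster to cluster. The run and the stretch were picked out after the values were seen, with 42 of 69 members lower, and were not tested.

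**Figure D3:**
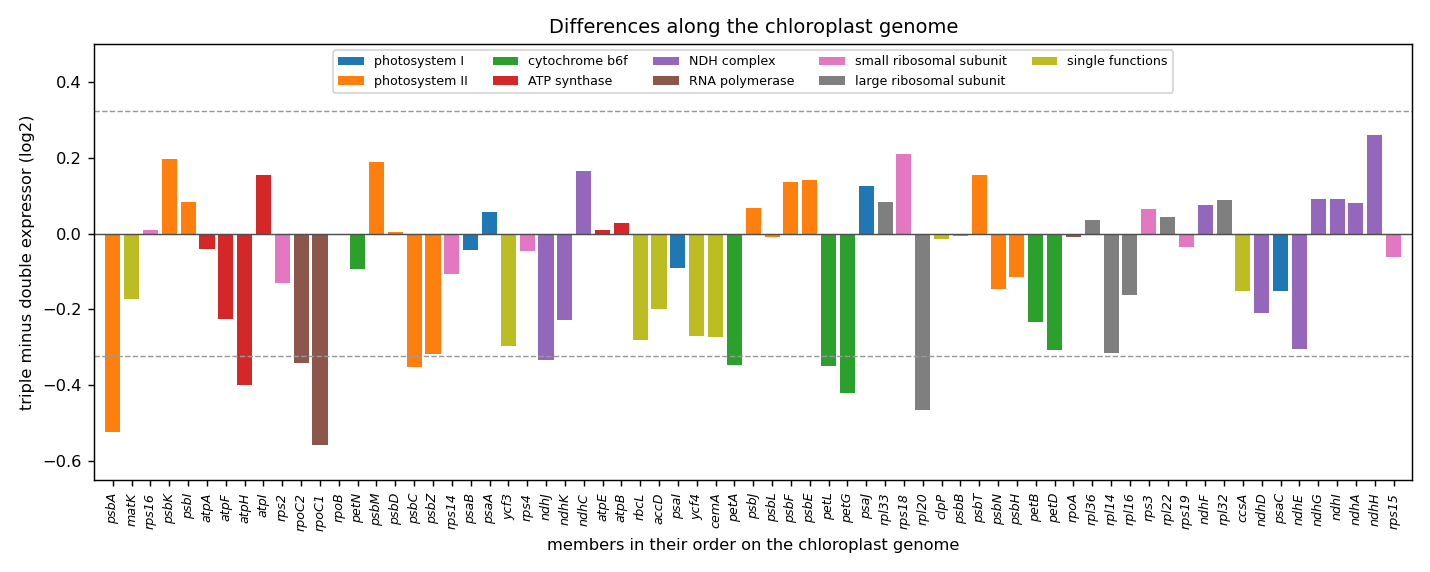
Difference between the triple and the double expressor (y axis, log2) of the 69 chloroplast-encoded genes in their order on the chloroplast genome (x axis, evenly spaced), coloured by complex, with dashed lines at the threshold of 0.322. The 6 genes from rbcL to petA are all below 0, and the clusters that follow alternate in the direction of most of their genes.

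Within other clusters the genes parted. In the cluster of ndhH, ndhA, ndhI, ndhG, ndhE, psaC and ndhD, the 4 leading genes were higher, by 0.26, 0.08, 0.09 and 0.09, and the 3 behind them were at -0.30, -0.15 and -0.21. In the cluster of ndhC, ndhK and ndhJ the differences were 0.16, -0.23 and -0.33. In that of psbD, psbC and psbZ they were 0.005, -0.353 and -0.319. In that of psbB, psbT, psbH, petB and petD they were -0.006, 0.15, -0.12, -0.23 and -0.31. The cluster of rpoB, rpoC1 and rpoC2 had 0.0, -0.56 and -0.34, and that of psaA, psaB and rps14 had 0.06, -0.04 and -0.11. These clusters were put together after their values were seen. The range within the cluster of psaA, 0.16, was near that within the cluster of psbE, 0.15, which also held both signs. The values of rpoB, rps14 and petD are below 5.71, and without rpoB the remaining rpoC1 lies below rpoC2. In the cluster of psbB, psbT lies above the leading gene.

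The clusters of the ATP synthase and ribosome genes held differences of both signs. The differences of rps2, atpI, atpH, atpF and atpA were -0.13, 0.15, -0.40, -0.22 and -0.04. Those of rps19, rpl22, rps3, rpl16, rpl14, rpl36 and rpoA were -0.04, 0.04, 0.06, -0.16, -0.316, 0.03 and -0.01. In the pairs, psbK and psbI were both higher, atpB and atpE were both within 0.03 of equal, and clpP and rpl20 differed by -0.01 and -0.47.

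**Figure D4:**
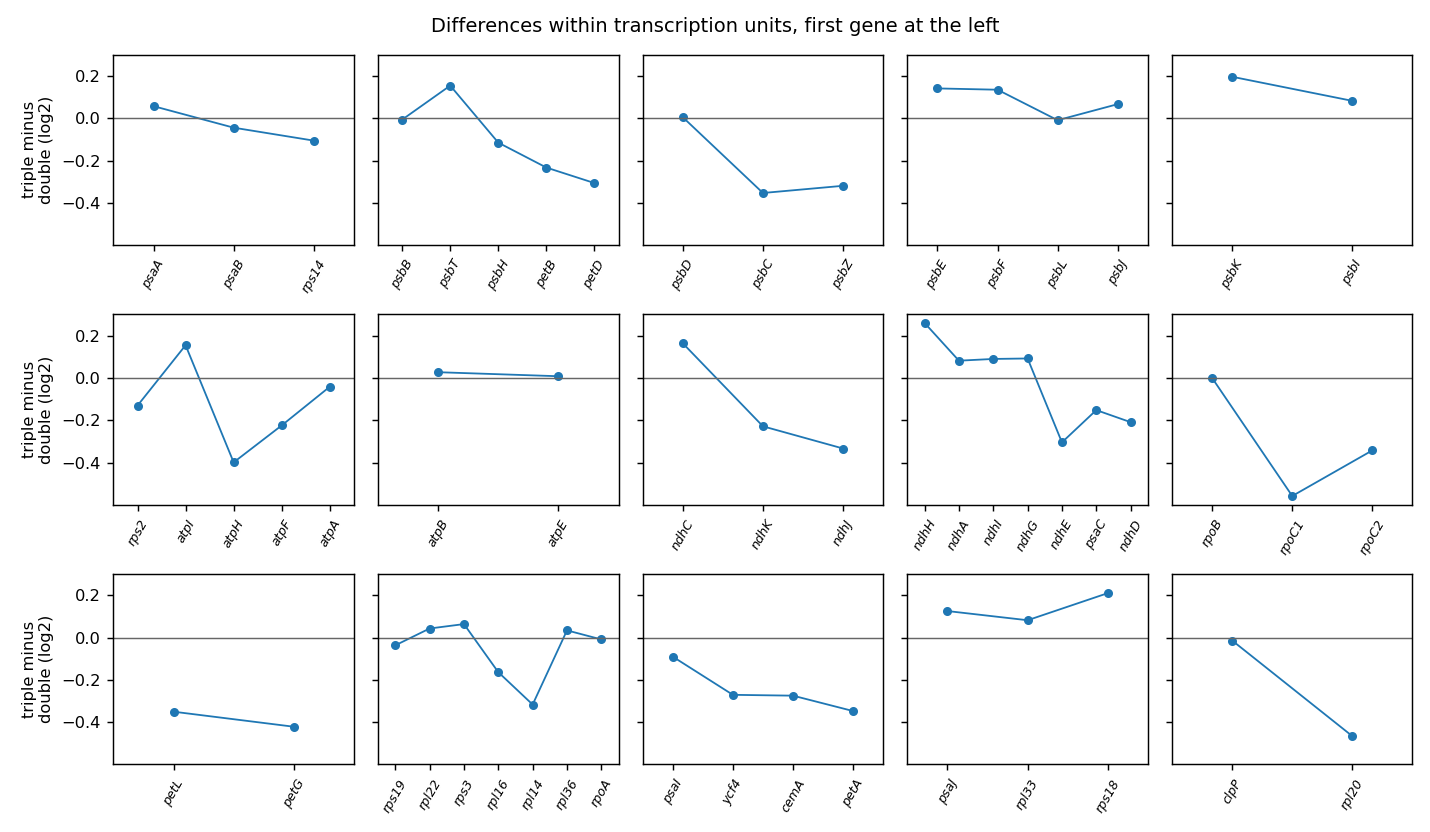
Difference between the triple and the double expressor (y axis, log2) of the measured genes of 15 co-transcribed clusters, 1 panel each, in the order of transcription from left to right (x axis). In 12 panels the gene at the left end lies above the gene at the right end, and in the clusters that start with rps2, rps19 and psaJ it lies below.

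The size of a difference went with the brightness of the probe set. Sorted by mean level, the 23 brightest members, from 11.18 upward, had 11 lower and 12 higher, a median of 0.008, an SD of 0.12 and no gene past the threshold. The 23 in the middle had a median of -0.22, an SD of 0.21 and 4 genes lower by at least 0.322. The 23 dimmest had a median of -0.13, an SD of 0.22 and 6 such genes. The other gene probe sets in the same ranges of level had medians of 0.018, 0.013 and 0.009 from brightest to dimmest, and 1.02%, 2.75% and 6.84% of them were lower by at least 0.322. Across the 69 genes, which share both arrays, the difference correlated with mean level at Pearson r = 0.19 and Spearman rho = 0.28, and with gene length at -0.20 and -0.21, given as descriptions. The part of level in the pattern was not tested.

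**Figure D5:**
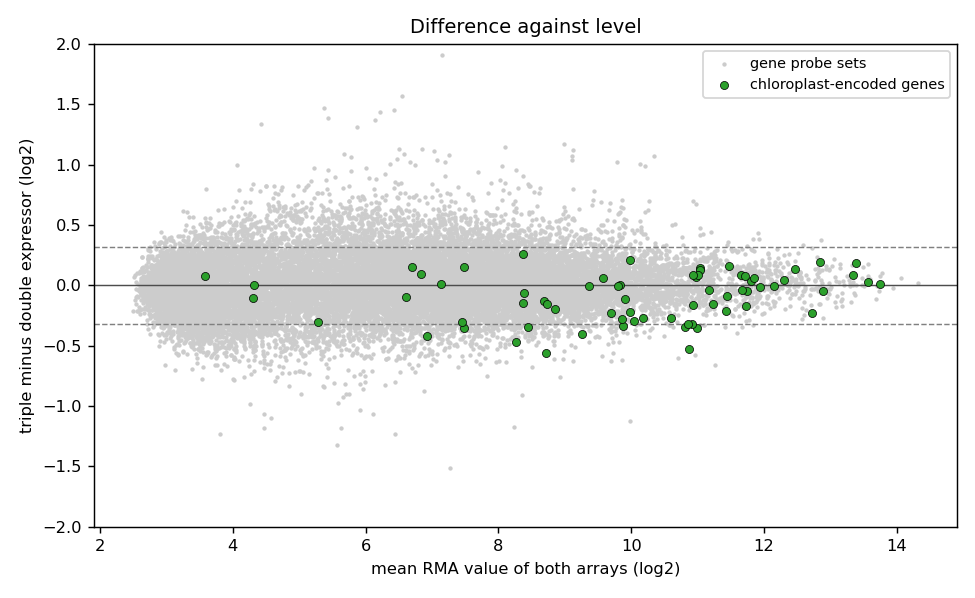
Difference between the triple and the double expressor (y axis, log2) against the mean of both arrays (x axis, log2) for 22746 gene probe sets (grey) and the 69 chloroplast-encoded genes (green), with dashed lines at the threshold of 0.322. The 10 members below the lower line have mean levels under 11.18, and none lies above the upper line.

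Differences of this size also occur between probe sets of the same gene. For 59 genes of any kind with more than 1 probe set reaching 5.71, the brightest and the next probe set disagreed by an amount that corresponds to an SD of 0.17 per probe set, and for 144 genes at any level 0.20. The SD of the 69 members' differences was also 0.20. Since each member has 1 probe set, no difference of a single gene could be checked by another probe set on these arrays.

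Nuclear genes of the same complexes and of plastid gene expression had a narrower spread of differences than the 69 chloroplast genes. A list of 107 such genes had 19 with a probe set named here, of which 14 were lower and 5 higher, with a median of -0.044, a range of -0.15 to 0.16 and an SD of 0.09, against 0.20 for the chloroplast genes. The difference in spread was not tested. Of the 19, 0 were past the threshold in either direction, where 6.3% of all gene probe sets were lower and 7.39% higher by that much. Most of the 19 lie at bright levels, where differences are small. The cytochrome b6f subunit gene PETM (AT2G26500) was at 12.62 in the double expressor and 12.58 in the triple, a difference of -0.05 beside the plastid median of -0.33. Of the ATP synthase gamma subunit genes, ATPC1 (AT4G04640) was lowest of the list at -0.15 and ATPC2 (AT1G15700) was at 0.12.

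For the other complexes the nuclear values were as follows. Photosystem I subunit genes PSAE1 (AT4G28750) and PSAN (AT5G64040) were at -0.06 and 0.16, the latter the highest of the list. Photosystem II subunit genes PSBW (AT2G30570) and PSBY (AT1G67740) were at -0.04 and -0.03. All 3 named NDH subunit genes were lower, from NDHN (AT5G58260) at -0.15 to NDHS (AT4G23890) at -0.03. The Clp subunit genes CLPP4 (AT5G45390) and CLPR3 (AT1G09130), which are partners of clpP in the protease, were at -0.07 and -0.11. Of 6 nuclear plastid ribosomal protein genes 4 were lower and 2 higher, from PRPL5 (AT4G01310) at -0.15 to PRPS6 (AT1G64510) at 0.11. Of 20 listed genes for transcription only RPOTmp (AT5G15700), a phage-type polymerase of plastids and mitochondria, was measured, at 0.004. The listed sigma factors and polymerase-associated proteins had no probe set of their own in the annotation used here.

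Other measures that moved between the arrays are given beside these results. Of 6 shoot markers 3 had a named probe set and differed by -0.03 to 0.11, from 13.72 to 13.83 for Rubisco activase, RCA. All 5 root markers were higher in the triple expressor, by 0.16 to 0.50, with 3 higher by at least 0.322. Of the 3 seed markers ICL was at -0.71, PAP85 at 0.18 and OLEO3 at -0.09, all below 5.71. The root marker PYK10 was at 12.86 and 13.02, so that a green tissue and a root marker were bright on both arrays, as in whole seedlings. Of 18 hybridisation control probe sets 15 were higher on the array of the triple expressor, with a median of 0.16, and that of 25S ribosomal RNA differed by 0.33. The part of root tissue, of the hybridisation and of ribosomal RNA in the chloroplast values was not tested.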

How the data were processed

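RNA of 1 double and 1 triple expressor sample was measured on Affymetrix arrays. The authors deposited log2 values of 22810 probe sets which per the submitters' processing notes come from RMA. The log2 scale was read from the range of the values, while version and software are unknown from the sources used here. RMA puts both arrays on 1 distribution, which would hide a shift common to most genes. Of the probe sets, 64 are controls and were left out of counts. Names came from the platform annotation, through gene identifiers, and the RefSeq gene table of TAIR10.1, whose coordinates served for gene order. That table also gave gene lengths and the chromosome used to choose members. The annotation gives 13513 probe sets with 1 gene, 503 with several and 8730 unnamed here.

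For each gene the probe set with the highest mean was used. With 1 array per genotype no model was fitted, and the number of arrays limits the precision. Medians, counts and ranges of differences were computed. Every member may be named. Both values are given for members at least 0.322 apart (25% on the linear scale) and for the lowest and highest of each complex, clusters of 3 or more are given in full, and of the nuclear list the lowest and highest. Members, lists and clusters were chosen with earlier results of these data known. Alternatives were median and lowess centring (span 0.3), floors at the 40th and 60th percentiles (5.71 and 7.17), the mean of all probe sets per gene, leaving out cross-hybridising probe sets, 32 added to unlogged values, and thresholds of 1.5-fold and 2-fold. Python 3.11.15, numpy 2.4.6, pandas 2.3.3, statsmodels 0.14.6 and matplotlib 3.10.9 were used.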

Additional observations from a re-analysis of the deposited data

How the results depend on the processing

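A median was taken as moved where it shifted by at least 0.05 on the log2 scale, and a count where it changed by over 1.5 times. The RNA polymerase median, -0.18, was -0.34 under floors at the 40th and 60th percentiles, which remove rpoB. The NDH median, 0.079, was -0.064 under the floor at the 60th percentile. The cytochrome b6f median, -0.33, was -0.26 with 32 added to the unlogged values, and the floor at the 60th percentile leaves 3 of its genes, all lower. The count of 10 members lower by at least 0.322 became 0 at thresholds of 1.5-fold and 2-fold, which 0.615% and 0.0528% of all gene probe sets passed on the lower side. It was 15 under median centring, where 1881 of 22746 gene probe sets were that much lower. Under lowess centring it was 13, beside 1396 of 22746. Under the higher floor it was 9, beside 375 of the probe sets kept, and with 32 added 8, beside 366 of 22746. The count of members that much higher was 0 in each, beside 1362, 1651, 661 and 765 gene probe sets in the same order. Without the cytochrome b6f genes and those of single functions, chosen after seeing the data, the median of the members, -0.047, was -0.006. Median centring shifted every difference by -0.034 and gave 47 lower and 22 higher members in place of 42 and 26. It also turned the split of all gene probe sets at least 0.322 apart from 1432 lower and 1682 higher to 1881 and 1362, and the photosystem II median from 0.005 to -0.029. Lowess centring turned that median to -0.009. Other counts of all gene probe sets past that threshold which moved were 666 lower under the lower floor, 375 and 661 under the higher floor, 859 and 899 genes with the mean of all probe sets, and 366 and 765 with 32 added. The pooled SD within clusters and the other medians by complex moved by less than 0.05 under the alternatives run. Of 470 recomputed values of single members 5 moved by 0.05 or more, all with 32 added, and 0 members past the threshold changed direction. No other setting could move a single value that far. The lowess curve lay between -0.041 and 0.029 over the members, and the floors remove genes without altering values. For the same reason neither centring could move a median by 0.05. Adding 32 cannot change the sign of a difference, so no setting could have turned the direction of those members. The mean of all probe sets, the filter on cross-hybridisation and leaving out genes at more than 1 place removed or altered 0 members, so they say nothing about stability. Leaving out a replicate was not possible. No paired analysis was possible because there is a single array of each genotype.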

Other observations

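The order of genes within co-transcribed clusters was looked at after the values had been seen. In 12 of 15 clusters the difference of the measured gene nearest the start of the cluster was above that of the gene nearest its end, and in 3 below. The gap between these genes had a median of 0.16 over the 15 clusters and ranged from -0.09, in the cluster from rps2 to atpA, to 0.50, in that from ndhC to ndhJ. Gaps of 0.47 from ndhH to ndhD, 0.45 from clpP to rpl20 and 0.32 from psbD to psbZ were also found. The 12 include near ties, with gaps of 0.02 from atpB to atpE, 0.07 from petL to petG and 0.07 from psbE to psbJ. Of the 11 clusters with at least 3 measured genes, 8 had the gap in this direction. The count was also 12 of 15 with 32 added to the unlogged values and under both centrings. Median centring could not change it, since it shifts every gene alike. Lowess centring could turn only narrow gaps, since its curve lay between -0.041 and 0.029 over the members. Under the floor at the 40th percentile it was 11 of 15, since the cluster of rpoB turns direction without rpoB, which lies below that floor, and runs from -0.56 for rpoC1 to -0.34 for rpoC2. Under the floor at the 60th percentile it was 10 of 14. The gap from psbB to petD, 0.30, also ends at a gene below the floor at the 40th percentile, and petD was at -0.17 with 32 added. The gaps were not tested, since each genotype has 1 array and each gene 1 probe set, and the SD of 0.17 per probe set, from probe sets of the same gene, applies to both ends of a gap.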
